A study of Homo sapiens with 8 samples.

Results

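The Fanconi anemia pathway and homologous recombination repair were followed through 33 genes listed by symbol, out of 54628 genes in the count table. All 33 had enough counts to be tested, among 17155 genes tested in all. The cells were IMR90, a human lung fibroblast line, which carried hTERT, the catalytic subunit of telomerase, and a pInducer20 vector with doxycycline-inducible YAP5SA under an N-terminal Flag tag. YAP5SA is a form of the Hippo pathway coactivator YAP that escapes inhibition by phosphorylation. Every group carried both constructs and was grown in 3% oxygen.

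The 4 groups held 2 libraries each. SEN_Dox cells were made senescent with bleomycin, a drug that breaks DNA, at 10 ug/ml for 24 h, were assessed 9 days after it, and had doxycycline at 1 ug/ml for 11 days. SEN_Ctrl cells had the same bleomycin without doxycycline. Nor_Dox cells proliferated, had no bleomycin and had the same doxycycline. Nor_Ctrl cells proliferated with neither drug. Cells lacking the transgene were not among the groups, so effects of doxycycline itself and of YAP5SA cannot be told apart. The 11 days of doxycycline were longer than the 24 h of bleomycin and the 9 days after it together. SEN_Dox cells may thus have had doxycycline before or during bleomycin. An effect on entry into senescence and an effect in cells already senescent cannot be told apart. Below, senescent names the state at assessment. Nothing in the labels says that the libraries of a group came from separate cultures, so p-values measure the spread between these libraries, which may be technical.

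The Fanconi anemia pathway deals with crosslinks that tie the strands of DNA together. A core complex of FANC proteins puts ubiquitin on the FANCD2 and FANCI pair, and the marked pair calls in nucleases and recombination proteins. Homologous recombination repairs breaks by cutting back the ends, loading repair proteins onto the single strand through BRCA2 and its partners, and copying an intact sister chromatid, which cells hold only after they have replicated their DNA. Many genes of both pathways are known to be transcribed mainly in dividing cells, under E2F factors that the RB proteins hold back in senescence.

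Total counts ran from 33627708 to 39692162 a library. Pearson correlations of log2 CPM, counts scaled to the size of each library, were 0.990 to 0.993 within groups and 0.920 to 0.977 between groups. The 10 fibroblast markers summed to 12648 and 15102 CPM in SEN_Dox cells and 26164 and 27202 CPM in SEN_Ctrl cells, against 18705 and 18977 CPM in Nor_Dox cells and 27013 and 26810 CPM in Nor_Ctrl cells, and with doxycycline 6 fell and 2 rose in senescent cells and 7 fell and 1 rose in proliferating cells. The 6 endothelial markers summed to 97.1 and 107 CPM in SEN_Dox cells and 135 and 155 CPM in SEN_Ctrl cells, against 45.7 and 50.7 CPM in Nor_Dox cells and 69.1 and 70.5 CPM in Nor_Ctrl cells. TEK carried nearly all of that sum, 4 of the 6 stayed below 1 CPM in every library, PECAM1 and CDH5 among them, and the 2 tested rose with bleomycin in both comparisons. The 6 epithelial markers summed to between 0.756 and 3.33 CPM, and 2 of the 3 tested, CDH1 and KRT14, rose with doxycycline in both states, with at most 45 and 48 counts in a library and none in Nor_Ctrl cells. The 6 leukocyte markers each stayed below 1 CPM and summed to at most 0.732 CPM. Over all tested genes, 23.8% fell and 22.6% rose with doxycycline in senescent cells, and 10.4% fell and 12.6% rose in proliferating cells. With bleomycin, 26.8% rose under doxycycline and 29.8% without it. The part of these markers in the changes of the 33 genes was not tested. The YAP1 locus, which was used to check the inducible construct, had 290.5 and 286 CPM in SEN_Dox cells and 190.2 and 223 CPM in SEN_Ctrl cells, against 190.1 and 238 CPM in Nor_Dox cells and 198 and 195 CPM in Nor_Ctrl cells. Its doxycycline effect was called in senescent cells (log2 change 0.48, SE 0.10, adjusted p = 0.0014) and not in proliferating cells (log2 change 0.12, SE 0.10, adjusted p = 0.43), and the difference between these YAP1 effects was not called (0.36, SE 0.15, adjusted p = 0.102). Whether reads of the transgene were counted there is not given in the sources used here. MKI67, a marker of cycling cells, had 9.32 and 10.5 CPM in SEN_Dox cells and 24.1 and 34.4 CPM in SEN_Ctrl cells, against 166 and 197 CPM in Nor_Dox cells and 270.3 and 273 CPM in Nor_Ctrl cells. In bulk RNA, fewer cells with a transcript and less of that transcript in each cell cannot be told apart.

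Bleomycin-induced senescence came with lower levels of nearly the whole set. Under doxycycline, between SEN_Dox and Nor_Dox cells, 31 of the 33 genes fell and none rose, where 28.7% of all tested genes fell and 26.8% rose. Their median log2 change was -1.68, against -0.01 over all tested genes, and 22 of the 31 fell by more than 2-fold and 15 by more than 4-fold. Without doxycycline, between SEN_Ctrl and Nor_Ctrl cells, 31 fell and none rose, where 29.4% of all tested genes fell and 29.8% rose. The median there was -2.12, against 0.01 over all tested genes, with 27 genes down by more than 2-fold and 19 by more than 4-fold. Each group of libraries enters more than 1 of the comparisons below, so their values are set side by side and no overlap between them is read as a result. In all 33 genes both senescent libraries lay below both proliferating libraries, with and without doxycycline, an order seen in 37.8% and 40.1% of all tested genes. Here and below a gene was called at a Benjamini-Hochberg adjusted p under 0.05 in edgeR's quasi-likelihood test, adjusted over all 17155 genes. The summed level of the 33 genes was 276 and 277 CPM in SEN_Dox cells and 286 and 319.9 CPM in SEN_Ctrl cells, against 768 and 759 CPM in Nor_Dox cells and 975 and 960.4 CPM in Nor_Ctrl cells.

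**Figure D1:**
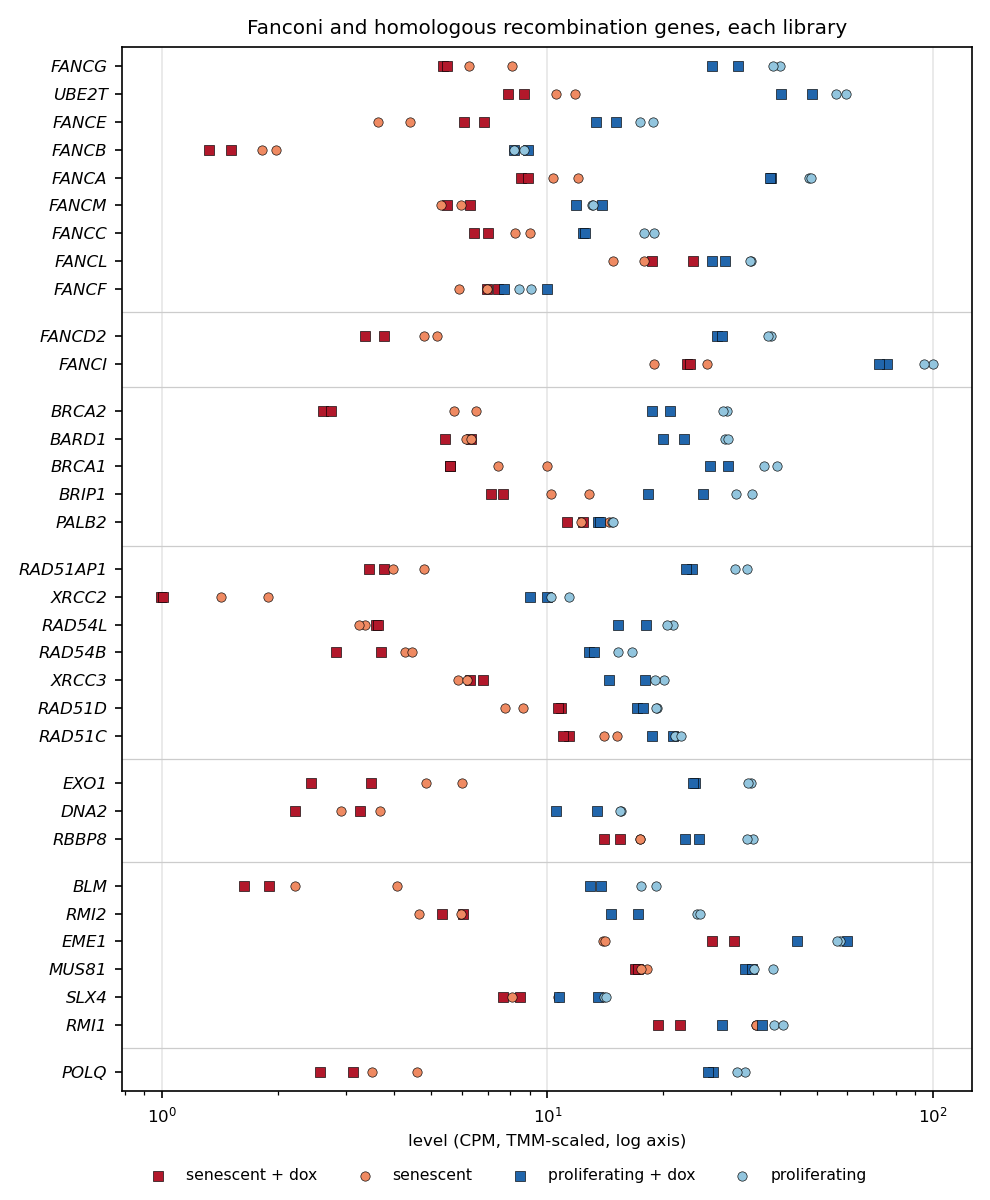
Level of each of the 33 genes in each of the 8 libraries, in CPM on a log axis, grouped by role from the Fanconi core complex at the top to POLQ at the bottom. Squares are libraries with doxycycline, circles those without, reds senescent and blues proliferating cells; in every row the senescent libraries lie to the left of the proliferating libraries that had the same doxycycline treatment.

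Set side by side per kilobase of merged exon, which allows genes to be compared with each other, the levels did not keep one order across groups. UBE2T was the highest in Nor_Ctrl cells at 63.5 ± 2.67 CPM per kb (SD, n = 2) and EME1 the next at 23.9 ± 0.244. In SEN_Dox cells FANCL led at 12.5 ± 2.12 CPM per kb, EME1 had 12.0 ± 1.11 and UBE2T had 9.15 ± 0.618. FANCL and EME1 differed there by less than the SD of FANCL. In SEN_Ctrl cells UBE2T led at 12.3 ± 0.964 CPM per kb, RMI1 had 10.2 ± 0.0251 and FANCL had 9.58 ± 1.25. The lowest were BRCA2 at 0.224 ± 0.00697 CPM per kb in SEN_Dox cells and POLQ at 0.446 ± 0.0849 in SEN_Ctrl cells, against FANCM at 1.77 ± 0.00172 in Nor_Ctrl cells.

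Since most of the genes moved in one direction, the sequence before their start sites was read. RefSeq (GRCh38.p14) promoters, from 250 bases before to 50 after a start, were found for 29 of the 33 genes, with no entry matched for DNA2, FANCI, RAD54B and RMI2. An E2F-like word was taken as TTGGCGC, with TTCCCGC as the second form, TTCGCGC as the third and TTGCCGC as the fourth, on either strand. Such words stood in 20 of the 29, or 69.0%, against 15.3% of 27305 genes with a promoter and 23.1% of the 12072 of those that were tested. The CHR word, TTTGAA in one form and TTCGAA in the other, stood in 4 of the 29, or 13.8%, against 19.5% of all promoters. A CCAAT word stood in 13 of the 29, or 44.8%, against 39.7% of all genes with a promoter and 42.0% of those tested. No matched words overlapped each other. Among the genes that fell by more than 4-fold without doxycycline, 13 of 16 with a promoter held an E2F-like word, against 7 of the other 13. BRCA2, FANCB and UBE2T fell by that much and held none. FANCF, not called with doxycycline, and RMI1, not called without it, held such words. A match describes letters, not a bound site.

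The 120 bases before the start are shown for RAD51AP1, RAD54L, BLM and FANCG, which fell strongly, for EME1 and FANCL, whose doxycycline effect differed between states, and for PALB2, which was not called in either bleomycin comparison. Capitals mark E2F-like words and CCAAT words (CCAAT, which reads ATTGG when it lies on the opposite strand), and each line reads 5′ to 3′ towards the gene.
RAD51AP1: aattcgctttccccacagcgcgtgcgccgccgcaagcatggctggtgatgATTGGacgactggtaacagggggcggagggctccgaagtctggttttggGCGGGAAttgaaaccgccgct
RAD54L: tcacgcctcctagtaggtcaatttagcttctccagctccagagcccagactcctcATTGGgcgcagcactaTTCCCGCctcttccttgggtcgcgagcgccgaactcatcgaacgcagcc
BLM: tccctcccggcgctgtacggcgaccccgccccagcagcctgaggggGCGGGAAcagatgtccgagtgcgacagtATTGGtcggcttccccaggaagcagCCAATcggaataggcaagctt
FANCG: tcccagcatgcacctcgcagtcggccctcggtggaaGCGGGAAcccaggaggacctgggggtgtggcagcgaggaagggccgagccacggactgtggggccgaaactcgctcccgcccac
EME1: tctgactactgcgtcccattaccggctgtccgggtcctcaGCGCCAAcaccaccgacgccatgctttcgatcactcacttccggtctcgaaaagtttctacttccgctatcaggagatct
FANCL: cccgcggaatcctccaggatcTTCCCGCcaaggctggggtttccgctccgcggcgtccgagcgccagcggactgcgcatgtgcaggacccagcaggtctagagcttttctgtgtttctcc
PALB2: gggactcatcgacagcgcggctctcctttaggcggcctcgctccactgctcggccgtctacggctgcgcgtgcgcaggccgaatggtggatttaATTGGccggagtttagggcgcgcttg
The stretches lie at chr12:4538770-4538889 on the plus strand, chr1:46247568-46247687 on the plus strand, chr15:90717226-90717345 on the plus strand and chr9:35079943-35080062 on the minus strand. Those of the other genes lie at chr17:50373109-50373228 on the plus strand, chr2:58241326-58241445 on the minus strand and chr16:23641311-23641430 on the minus strand. Counted from the RefSeq start used, the E2F-like word starts 21 bases before it in RAD51AP1, 49 in RAD54L, 74 in BLM, 84 in FANCG, 80 in EME1 and 99 in FANCL. Another RefSeq start of RAD54L puts its word 124 bases before it. The GENCODE starts of RAD51AP1, BLM, FANCG, EME1 and FANCL lie within the bases shown. By GENCODE, RAD51AP1 starts at 4538798, and its E2F-like word lies inside the gene. PALB2 has none in these bases and has an ATTGG that starts 26 bases before the start. The genes shown were picked as examples, so they do not show how the word goes with the fall.

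In the Fanconi core complex, 8 of 9 genes fell with doxycycline and all 9 without it. FANCG, a core subunit that binds FANCA, had 5.37 and 5.48 CPM in SEN_Dox cells and 6.27 and 8.11 CPM in SEN_Ctrl cells, against 31.3 and 26.7 CPM in Nor_Dox cells and 40.2 and 38.4 CPM in Nor_Ctrl cells. It fell 5.33-fold with doxycycline (log2 change -2.41, SE 0.13, adjusted p = 2.75e-10) and 5.47-fold without it (log2 change -2.45, SE 0.12, adjusted p = 1.28e-10). UBE2T, the enzyme that hands ubiquitin to the complex, had 8.70 and 7.91 CPM in SEN_Dox cells and 10.6 and 11.8 CPM in SEN_Ctrl cells, against 48.7 and 40.3 CPM in Nor_Dox cells and 56.0 and 59.4 CPM in Nor_Ctrl cells. Its levels did not overlap between states, and it fell 5.35-fold and 5.17-fold, with and without doxycycline. FANCA, a core subunit, had 8.55 and 8.89 CPM in SEN_Dox cells and 10.3 and 12.0 CPM in SEN_Ctrl cells, against 38.0 and 37.8 CPM in Nor_Dox cells and 47.7 and 48.1 CPM in Nor_Ctrl cells, a fall of 4.34-fold with and 4.30-fold without doxycycline. FANCB, which sits in the catalytic module, had 1.32 and 1.51 CPM in SEN_Dox cells and 1.82 and 1.98 CPM in SEN_Ctrl cells, against 8.88 and 8.18 CPM in Nor_Dox cells and 8.69 and 8.19 CPM in Nor_Ctrl cells, from 52 and 54 counts in the SEN_Dox libraries and 65 in each SEN_Ctrl library. Its log2 change was -2.59 with and -2.15 without doxycycline. FANCL, the ubiquitin ligase itself, had 23.8 and 18.7 CPM in SEN_Dox cells and 14.8 and 17.8 CPM in SEN_Ctrl cells, against 28.9 and 26.7 CPM in Nor_Dox cells and 33.7 and 33.5 CPM in Nor_Ctrl cells. It fell with doxycycline (log2 change -0.39, SE 0.12, adjusted p = 0.0104) and without it (log2 change -1.04, SE 0.12, adjusted p = 1.56e-06), and the call with doxycycline was lost without SEN_Dox replicate 2 (log2 -0.23, adjusted p = 0.155) or Nor_Dox replicate 1 (-0.34, adjusted p = 0.0549). FANCL shares 452 exon bases, 26.6% of its own, with VRK2 on the opposite strand, and FANCA shares 1402, or 22.4%, with ZNF276. In all, 10 of the 33 genes share exon bases with another coding gene, among them RAD54B, which shares 2891, or 63.3%, with FSBP on its own strand, and RAD54L, which shares 566, or 18.0%, with LRRC41. How strand and reads that fit both genes were handled in counting is not given in the sources used here. Reads of such pairs may be left out or given to either gene, so these levels may be off. For RAD54B and FSBP, strand cannot tell the reads apart.

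FANCE, which ties the core complex to FANCD2, had 6.08 and 6.85 CPM in SEN_Dox cells and 3.64 and 4.41 CPM in SEN_Ctrl cells, against 15.1 and 13.4 CPM in Nor_Dox cells and 17.4 and 18.8 CPM in Nor_Ctrl cells. With doxycycline it fell 2.20-fold (log2 change -1.14, SE 0.13, adjusted p = 1.75e-06) and without it 4.50-fold (log2 change -2.17, SE 0.13, adjusted p = 1.4e-09). FANCM, a translocase that anchors the complex on DNA, had 6.29 and 5.48 CPM in SEN_Dox cells and 5.29 and 5.96 CPM in SEN_Ctrl cells, against 11.9 and 13.9 CPM in Nor_Dox cells and 13.1 and 13.1 CPM in Nor_Ctrl cells, with log2 changes of -1.13 with and -1.22 without doxycycline. FANCC, which pairs with FANCE, had 7.02 and 6.46 CPM in SEN_Dox cells and 8.23 and 8.99 CPM in SEN_Ctrl cells, against 12.4 and 12.5 CPM in Nor_Dox cells and 18.9 and 17.8 CPM in Nor_Ctrl cells, with log2 changes of -0.88 and -1.09. Both genes fell in both comparisons, and their levels did not overlap between states. FANCF, the adaptor of the complex, had 6.97 and 7.46 CPM in SEN_Dox cells and 6.97 and 5.89 CPM in SEN_Ctrl cells, against 10.00 and 7.71 CPM in Nor_Dox cells and 8.42 and 9.09 CPM in Nor_Ctrl cells. Its fall was the smallest of the complex, not called with doxycycline (log2 change -0.29, SE 0.15, adjusted p = 0.108) and called without it (log2 change -0.44, SE 0.15, adjusted p = 0.0184). The second call was lost without SEN_Ctrl replicate 2 (adjusted p = 0.133) or Nor_Ctrl replicate 2 (adjusted p = 0.116), and in DESeq2 (adjusted p = 0.0577).

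The substrates of the complex fell together. FANCD2 had 3.36 and 3.77 CPM in SEN_Dox cells and 4.79 and 5.17 CPM in SEN_Ctrl cells, against 27.6 and 28.4 CPM in Nor_Dox cells and 38.1 and 37.3 CPM in Nor_Ctrl cells. That was a 7.85-fold fall with doxycycline (log2 change -2.97, SE 0.11, adjusted p = 4.17e-12) and 7.57-fold without it (log2 change -2.92, SE 0.10, adjusted p = 2.56e-12). FANCI, its partner in the clamp, had 23.0 and 23.4 CPM in SEN_Dox cells and 18.9 and 26.0 CPM in SEN_Ctrl cells, against 75.9 and 72.5 CPM in Nor_Dox cells and 100.2 and 94.9 CPM in Nor_Ctrl cells, and fell 3.20-fold with and 4.35-fold without doxycycline. The SEN_Ctrl libraries of FANCI lay further apart than its SEN_Dox libraries.

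Of the BRCA group, 4 of 5 genes fell in each comparison. BRCA2, which acts on single-stranded DNA at resected ends, had 2.62 and 2.74 CPM in SEN_Dox cells and 5.71 and 6.53 CPM in SEN_Ctrl cells, against 18.7 and 20.8 CPM in Nor_Dox cells and 29.2 and 28.5 CPM in Nor_Ctrl cells. It fell 7.37-fold with doxycycline (log2 change -2.88, SE 0.12, adjusted p = 2.66e-11) and 4.72-fold without it (log2 change -2.24, SE 0.11, adjusted p = 1.2e-10). BRCA1, which forms a ubiquitin ligase with BARD1, had 5.57 and 5.59 CPM in SEN_Dox cells and 7.45 and 10.0 CPM in SEN_Ctrl cells, against 26.3 and 29.5 CPM in Nor_Dox cells and 39.4 and 36.5 CPM in Nor_Ctrl cells, and fell 5.00-fold with and 4.36-fold without doxycycline. BARD1 had 5.42 and 6.32 CPM in SEN_Dox cells and 6.16 and 6.32 CPM in SEN_Ctrl cells, against 19.97 and 22.6 CPM in Nor_Dox cells and 28.9 and 29.3 CPM in Nor_Ctrl cells, and fell 3.64-fold with and 4.67-fold without. For both partners every senescent library lay below every proliferating library. BRIP1, a helicase that binds BRCA1, had 7.13 and 7.66 CPM in SEN_Dox cells and 10.2 and 12.8 CPM in SEN_Ctrl cells, against 18.2 and 25.3 CPM in Nor_Dox cells and 33.9 and 30.8 CPM in Nor_Ctrl cells, with log2 changes of -1.56 with and -1.495 without doxycycline. PALB2, the bridge between BRCA1 and BRCA2, had 12.4 and 11.3 CPM in SEN_Dox cells and 12.2 and 14.5 CPM in SEN_Ctrl cells, against 13.5 and 13.7 CPM in Nor_Dox cells and 14.7 and 14.8 CPM in Nor_Ctrl cells. Its senescent libraries lay by small margins below the proliferating ones of the same doxycycline treatment, while 1 SEN_Ctrl library lay above both Nor_Dox libraries. PALB2 was called neither with doxycycline (log2 change -0.20, SE 0.11, adjusted p = 0.137) nor without it (log2 change -0.15, SE 0.11, adjusted p = 0.265). With scaling by total counts alone PALB2 passed the test without doxycycline (log2 -0.32, adjusted p = 0.0284).

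All 7 genes of the group that holds the XRCC2 and XRCC3 complexes, RAD51AP1 and the RAD54 translocases fell in both comparisons. XRCC2, a subunit of a complex that promotes strand exchange, had 0.993 and 1.01 CPM in SEN_Dox cells and 1.43 and 1.88 CPM in SEN_Ctrl cells, against 9.00 and 10.0 CPM in Nor_Dox cells and 11.3 and 10.2 CPM in Nor_Ctrl cells. These values rest on 39 and 36 counts in the SEN_Dox libraries and 51 and 62 in the SEN_Ctrl libraries. It fell 9.48-fold with doxycycline (log2 change -3.25, SE 0.18, adjusted p = 8.26e-10) and 6.52-fold without it (log2 change -2.70, SE 0.17, adjusted p = 2.66e-09). RAD51AP1, which stimulates strand invasion, had 3.44 and 3.77 CPM in SEN_Dox cells and 3.97 and 4.77 CPM in SEN_Ctrl cells, against 23.7 and 22.9 CPM in Nor_Dox cells and 32.9 and 30.6 CPM in Nor_Ctrl cells, a fall of 6.47-fold with and 7.28-fold without doxycycline. RAD54L, a translocase that works in strand exchange, had 3.59 and 3.63 CPM in SEN_Dox cells and 3.36 and 3.25 CPM in SEN_Ctrl cells, against 18.0 and 15.3 CPM in Nor_Dox cells and 21.2 and 20.4 CPM in Nor_Ctrl cells, a fall of 4.60-fold with and 6.28-fold without. RAD54B, a related translocase, had 2.83 and 3.69 CPM in SEN_Dox cells and 4.28 and 4.47 CPM in SEN_Ctrl cells, against 12.9 and 13.2 CPM in Nor_Dox cells and 16.6 and 15.2 CPM in Nor_Ctrl cells, with log2 changes of -2.004 with and -1.86 without doxycycline. In all 4 genes the levels were several times lower in senescent cells. RAD51C, a subunit of both complexes, had 11.4 and 11.0 CPM in SEN_Dox cells and 15.1 and 14.01 CPM in SEN_Ctrl cells, against 21.1 and 18.7 CPM in Nor_Dox cells and 21.5 and 22.2 CPM in Nor_Ctrl cells, with log2 changes of -0.83 and -0.58. RAD51D, which joins RAD51C and XRCC2, had 10.8 and 10.7 CPM in SEN_Dox cells and 7.75 and 8.63 CPM in SEN_Ctrl cells, against 17.1 and 17.7 CPM in Nor_Dox cells and 19.2 and 19.2 CPM in Nor_Ctrl cells, with log2 changes of -0.69 and -1.23. XRCC3, which pairs with RAD51C, had 6.31 and 6.79 CPM in SEN_Dox cells and 5.85 and 6.17 CPM in SEN_Ctrl cells, against 14.4 and 17.9 CPM in Nor_Dox cells and 20.03 and 19.0 CPM in Nor_Ctrl cells, with log2 changes of -1.31 and -1.70. The fitted falls of these 3 genes were smaller than that of XRCC2 in both comparisons, a difference that was not tested. XRCC3 shares 1452 exon bases, 45.3% of its own, with KLC1 on the opposite strand, whose level was 189 ± 4.54 CPM in SEN_Dox cells and 216 ± 1.499 CPM in SEN_Ctrl cells, against 173 ± 0.573 CPM in Nor_Dox cells and 153 ± 3.14 CPM in Nor_Ctrl cells (SD, n = 2).

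Among the resection nucleases, EXO1, which digests the strand over long distances, had 2.44 and 3.49 CPM in SEN_Dox cells and 4.84 and 5.99 CPM in SEN_Ctrl cells, against 24.1 and 23.9 CPM in Nor_Dox cells and 33.7 and 33.05 CPM in Nor_Ctrl cells. It fell 8.12-fold with doxycycline (log2 change -3.02, SE 0.14, adjusted p = 9.41e-11) and 6.17-fold without it (log2 change -2.63, SE 0.14, adjusted p = 1.77e-10). DNA2, the other long-range nuclease, had 2.21 and 3.27 CPM in SEN_Dox cells and 2.91 and 3.68 CPM in SEN_Ctrl cells, against 10.5 and 13.4 CPM in Nor_Dox cells and 15.5 and 15.4 CPM in Nor_Ctrl cells, and fell 4.39-fold with and 4.69-fold without. RBBP8, which encodes CtIP and starts resection, had 15.4 and 14.01 CPM in SEN_Dox cells and 17.4 and 17.4 CPM in SEN_Ctrl cells, against 22.7 and 24.8 CPM in Nor_Dox cells and 34.1 and 32.999 CPM in Nor_Ctrl cells, with log2 changes of -0.69 and -0.95. Its levels did not overlap between states.

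Of the 6 genes that resolve joined DNA, all fell with doxycycline and 5 without it. BLM, the helicase that unwinds joint molecules, had 1.63 and 1.90 CPM in SEN_Dox cells and 2.21 and 4.07 CPM in SEN_Ctrl cells, against 13.7 and 12.9 CPM in Nor_Dox cells and 19.1 and 17.5 CPM in Nor_Ctrl cells. It fell 7.55-fold with doxycycline (log2 change -2.92, SE 0.21, adjusted p = 8.17e-08) and 5.84-fold without it (log2 change -2.55, SE 0.20, adjusted p = 1.26e-07). RMI1, a partner of BLM in the dissolving complex, had 22.0 and 19.4 CPM in SEN_Dox cells and 34.8 and 34.7 CPM in SEN_Ctrl cells, against 28.4 and 36.1 CPM in Nor_Dox cells and 38.8 and 40.9 CPM in Nor_Ctrl cells. Its change was called with doxycycline (log2 change -0.64, SE 0.11, adjusted p = 0.00014) and not without it (log2 change -0.20, SE 0.11, adjusted p = 0.124). The second passed with only the libraries compared (adjusted p = 0.0271), without Nor_Dox replicate 1 (0.0439) or 2 (0.0462), and with scaling by total counts alone (0.0117). RMI2, another partner of BLM, had 5.32 and 6.04 CPM in SEN_Dox cells and 4.65 and 5.96 CPM in SEN_Ctrl cells, against 17.1 and 14.6 CPM in Nor_Dox cells and 24.5 and 24.9 CPM in Nor_Ctrl cells, and fell 2.80-fold with and 4.67-fold without doxycycline. MUS81, a nuclease that cuts joint molecules, had 16.9 and 17.1 CPM in SEN_Dox cells and 18.1 and 17.5 CPM in SEN_Ctrl cells, against 32.6 and 33.9 CPM in Nor_Dox cells and 34.4 and 38.6 CPM in Nor_Ctrl cells, and fell 1.95-fold with and 2.05-fold without. Both fell in both comparisons without overlap between states. EME1, the partner of MUS81, had 26.8 and 30.5 CPM in SEN_Dox cells and 13.9 and 14.1 CPM in SEN_Ctrl cells, against 59.9 and 44.5 CPM in Nor_Dox cells and 57.4 and 56.5 CPM in Nor_Ctrl cells. It fell 1.82-fold with doxycycline (log2 change -0.87, SE 0.12, adjusted p = 1.95e-05) and 4.07-fold without it (log2 change -2.03, SE 0.12, adjusted p = 2.89e-09). SLX4, the scaffold for these nucleases, had 7.66 and 8.47 CPM in SEN_Dox cells and 8.09 and 10.7 CPM in SEN_Ctrl cells, against 10.7 and 13.5 CPM in Nor_Dox cells and 14.03 and 14.2 CPM in Nor_Ctrl cells. Its log2 change was -0.59 with doxycycline (adjusted p = 0.00273) and -0.59 without it (adjusted p = 0.00221). POLQ, the polymerase of microhomology-mediated end joining, had 2.57 and 3.13 CPM in SEN_Dox cells and 3.50 and 4.59 CPM in SEN_Ctrl cells, against 26.8 and 26.1 CPM in Nor_Dox cells and 32.5 and 31.0 CPM in Nor_Ctrl cells. It fell 9.30-fold with doxycycline (log2 change -3.22, SE 0.14, adjusted p = 2.3e-11) and 7.88-fold without it (log2 change -2.98, SE 0.13, adjusted p = 2.45e-11), the largest fall of the 33 in the second comparison.

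**Figure D2:**
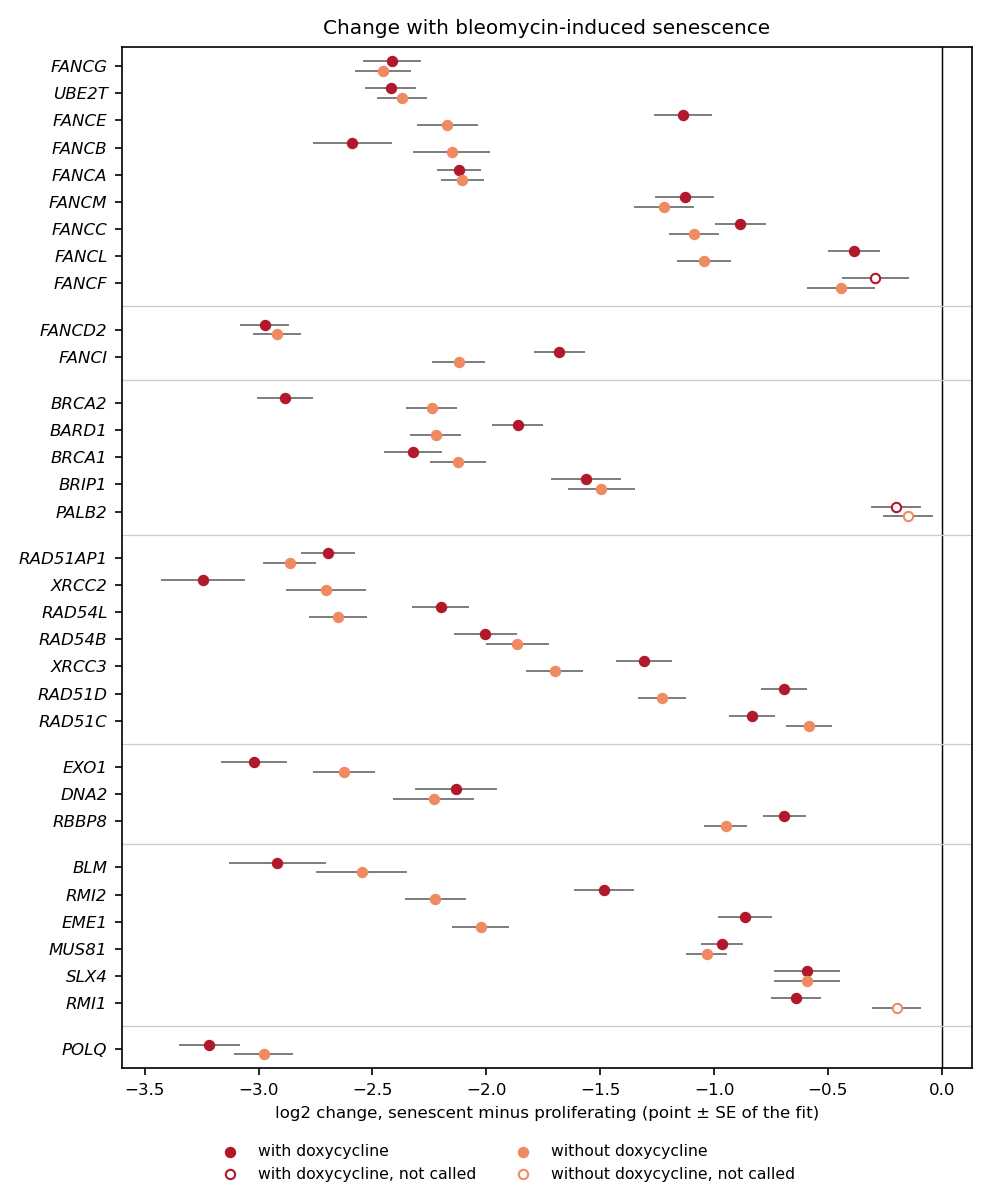
Fitted log2 change of each of the 33 genes between senescent and proliferating cells, with its SE, with doxycycline (red) and without (orange). Every point lies left of 0, filled points were called and open points were not, and PALB2 is open in both comparisons.

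Cell cycle transcripts fell in the same comparisons. All 20 mitotic markers fell in both bleomycin comparisons, with medians of log2 -3.51 with doxycycline and -3.27 without, and all 20 replication markers fell, with medians of -2.24 and -2.50. The mitotic markers summed to 175 and 180.1 CPM in SEN_Dox cells and 271 and 333 CPM in SEN_Ctrl cells, against 2089 and 2047 CPM in Nor_Dox cells and 2855 and 2799 CPM in Nor_Ctrl cells. Their part in the falls of the 33 genes was not tested. In 50 tested genes of the same pathways outside the set, 33 fell and 1 rose with doxycycline, and 33 fell and 6 rose without it, with medians of -0.49 and -0.55. PARPBP, an inhibitor of homologous recombination, had the largest fall there, at log2 -2.78 and -2.68, and ATM, the kinase that signals breaks, rose without doxycycline (log2 change 0.58, SE 0.10, adjusted p = 0.000146). Non-homologous end joining had 12 of 20 genes down and 1 up with doxycycline, and 13 down and 2 up without it, among them LIG4, its ligase, which rose in both (0.80 and 0.71). Of 21 nucleotide excision repair genes, 4 fell and 3 rose with doxycycline, and 2 fell and 8 rose without it. Base excision repair had 14 of 19 genes down and none up with doxycycline, and 15 down and 1 up without it. Mismatch repair had 5 of 7 down and none up with doxycycline, and 4 down and 1 up without it. Over all tested genes these shares were 28.7% down and 26.8% up with doxycycline, and 29.4% down and 29.8% up without it.

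**Figure D3:**
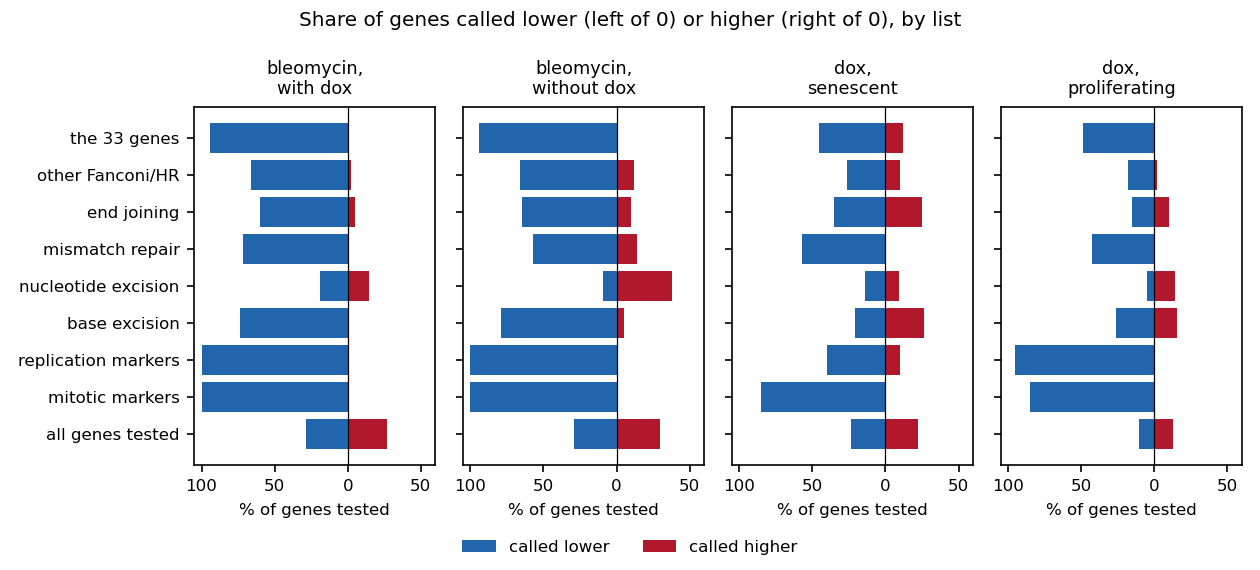
Share of the tested genes of each list, in percent, that was called lower (blue, left of 0) or higher (red, right of 0) in each of 4 comparisons. The 33 genes and the replication and mitotic markers have all of their bleomycin calls on the left, while all genes tested, at the bottom, are divided about evenly.

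Part of the set was lower with doxycycline in proliferating cells. Between Nor_Dox and Nor_Ctrl cells, 16 of the 33 genes fell and none rose, where 10.4% of all tested genes fell and 12.6% rose. The median log2 change was -0.34, against 0.00 over all tested genes, and in 29 of the 33 both Nor_Dox libraries lay below both Nor_Ctrl libraries, as in 31.2% of all tested genes. The falls were small, none over 1.56-fold. Mitotic markers fell in 17 of 20 and replication markers in 19 of 20 (medians -0.44 and -0.43), and the part they had in the falls of the set was not tested.

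RMI2 had 17.1 and 14.6 CPM in Nor_Dox cells, against 24.5 and 24.9 CPM in Nor_Ctrl cells. It fell the most of the 33 (log2 change -0.64, SE 0.12, adjusted p = 0.00115). FANCC had 12.4 and 12.5 CPM in Nor_Dox cells, against 18.9 and 17.8 CPM in Nor_Ctrl cells, without overlap (log2 change -0.56, SE 0.11, adjusted p = 0.00124). BRCA2 had 18.7 and 20.8 CPM in Nor_Dox cells, against 29.2 and 28.5 CPM in Nor_Ctrl cells, a fall of log2 -0.55 (SE 0.10, adjusted p = 0.000985). RBBP8 had 22.7 and 24.8 CPM in Nor_Dox cells, against 34.1 and 32.999 CPM in Nor_Ctrl cells, a fall of log2 -0.50 (SE 0.09, adjusted p = 0.000875). These 4 genes were called under every one of the 17 alternative settings. The other 12 called genes were BRIP1, EXO1, BARD1, RAD51AP1, BRCA1, FANCG, FANCD2, FANCI, UBE2T, FANCE, FANCA and RAD54L, with log2 changes between -0.57 and -0.32, and each lost its call under at least 1 alternative. With the description's replicate number as a block the median of the 33 genes was log2 -0.29. It was -0.35 without Nor_Ctrl replicate 1 and -0.33 without Nor_Ctrl replicate 2. Over all tested genes these medians were 0.00, 0.01 and 0.01. In each of these fits fewer of the 33 genes and fewer of all tested genes fell. In that block Nor_Ctrl replicate 1 stood alone, so the fit in effect left it out. Near 0 lay FANCM (-0.02), FANCF (0.01) and FANCB (0.01), none of them called. EME1 was not called either (log2 change -0.13, SE 0.12, adjusted p = 0.478), and its Nor_Dox libraries lay far apart, at 59.9 and 44.5 CPM.

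In senescent cells more of the set fell than rose with doxycycline. Between SEN_Dox and SEN_Ctrl cells, 15 of the 33 genes, or 45.5%, fell, where 23.8% of all tested genes fell. Only 4, or 12.1%, rose, a smaller share than the 22.6% of all tested genes that rose. The median log2 change was -0.28, against 0.00 over all tested genes, and in 19 genes both SEN_Dox libraries lay below both SEN_Ctrl libraries, as in 36.8% of all tested genes. Over all genes, 48.7% of calls were higher, and 69.3% were with scaling by total counts alone. That scaling moved the median of all genes to 0.17 and left 7 falls and 4 rises in the set. Under it 2498 of the 17155 tested genes fell and 5644 rose. Mitotic markers fell in 17 of 20 (median -0.72) and replication markers in 8 of 20, with 2 up (median -0.24). Their part in these changes was not tested.

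The 4 genes that rose were EME1, FANCE, RAD51D and FANCL. EME1 had 26.8 and 30.5 CPM in SEN_Dox cells, against 13.9 and 14.1 CPM in SEN_Ctrl cells. It rose 2.05-fold (log2 change 1.03, SE 0.13, adjusted p = 1.05e-05), with both SEN_Dox libraries above both SEN_Ctrl libraries and below every proliferating library. EME1 (chromosome 17, 50373220 to 50381483, plus strand) shares 246 exon bases, 10.3% of its own, with LRRC59 on the opposite strand, which had 273 and 296 CPM in SEN_Dox cells, against 273 and 277 CPM in SEN_Ctrl cells. FANCE (chromosome 6, 35452356 to 35467103, plus strand) had 6.08 and 6.85 CPM in SEN_Dox cells, against 3.64 and 4.41 CPM in SEN_Ctrl cells, and rose 1.61-fold (log2 change 0.69, SE 0.14, adjusted p = 0.000853). RAD51D (chromosome 17, 35092208 to 35121522, minus strand) had 10.8 and 10.7 CPM in SEN_Dox cells, against 7.75 and 8.63 CPM in SEN_Ctrl cells, and rose 1.31-fold (log2 change 0.39, SE 0.11, adjusted p = 0.0069), a call lost without SEN_Ctrl replicate 1 (log2 0.31, adjusted p = 0.0696). FANCL (chromosome 2, 58159243 to 58241372, minus strand) had 23.8 and 18.7 CPM in SEN_Dox cells, against 14.8 and 17.8 CPM in SEN_Ctrl cells, and rose 1.31-fold (log2 change 0.39, SE 0.12, adjusted p = 0.0152). Its call was lost without SEN_Ctrl replicate 1 (log2 0.25, adjusted p = 0.166) or SEN_Dox replicate 1 (0.21, adjusted p = 0.229).

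BRCA2 (chromosome 13, 32315474 to 32400266, plus strand) led the falls, with 2.62 and 2.74 CPM in SEN_Dox cells, against 5.71 and 6.53 CPM in SEN_Ctrl cells, a 2.28-fold drop (log2 change -1.19, SE 0.13, adjusted p = 2.81e-06). EXO1 had 2.44 and 3.49 CPM in SEN_Dox cells, against 4.84 and 5.99 CPM in SEN_Ctrl cells (log2 change -0.87, SE 0.16, adjusted p = 0.000354). The groups did not overlap in either gene. RMI1 had 22.0 and 19.4 CPM in SEN_Dox cells, against 34.8 and 34.7 CPM in SEN_Ctrl cells (log2 change -0.75, SE 0.11, adjusted p = 5.24e-05). BRCA1 had 5.57 and 5.59 CPM in SEN_Dox cells, against 7.45 and 10.0 CPM in SEN_Ctrl cells (log2 change -0.64, SE 0.14, adjusted p = 0.00127). In each of these 4 genes both SEN_Dox libraries lay below both SEN_Ctrl libraries. EME1, FANCE, BRCA2, EXO1, RMI1 and BRCA1 were called under every one of the 17 alternatives. BLM had 1.63 and 1.90 CPM in SEN_Dox cells, against 2.21 and 4.07 CPM in SEN_Ctrl cells, and its fall (log2 change -0.83, SE 0.24, adjusted p = 0.0115) was lost without SEN_Ctrl replicate 2 (log2 -0.33, adjusted p = 0.199) or SEN_Dox replicate 1 (-0.71, adjusted p = 0.107). The other 10 called falls, XRCC2, BRIP1, POLQ, FANCD2, RAD54B, UBE2T, FANCG, RAD51C, FANCA and FANCC, had log2 changes between -0.72 and -0.35, and each was lost under at least 1 alternative. Without SEN_Ctrl replicate 2 the number of falls was 6 and without SEN_Dox replicate 1 it was 7, and without SEN_Ctrl replicate 1 the number of rises was 2. MUS81, the partner of EME1, was not called (log2 change -0.07, SE 0.09, adjusted p = 0.586).

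**Figure D4:**
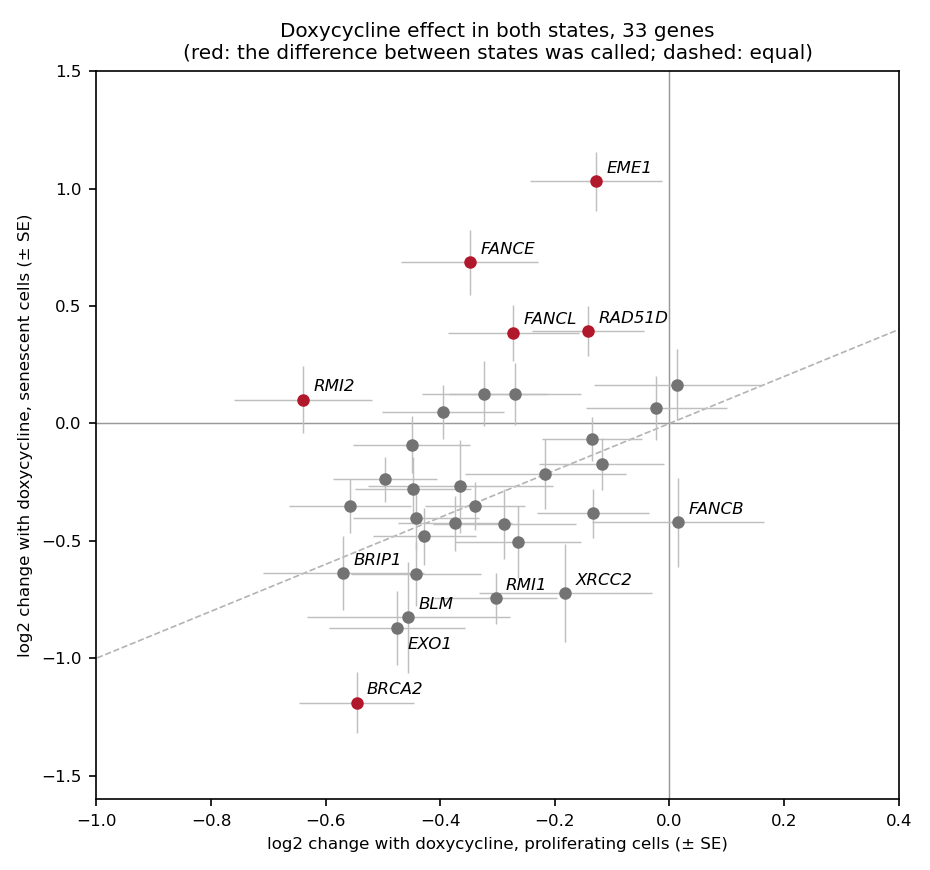
Fitted log2 change with doxycycline of the 33 genes in senescent cells (vertical axis) and proliferating cells (horizontal axis), each with its SE. Red points are the 6 genes whose doxycycline effect differed between states; EME1, FANCE, FANCL, RAD51D and RMI2 lie above the dashed line of equal effects and BRCA2 below it.

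The difference between the doxycycline effects in senescent and proliferating cells was tested as an interaction. It was called above 0 in 5 of the 33 genes (15.2%) and below 0 in 1 (3.03%), where 8.07% of all tested genes were above and 11.8% below. The median difference was 0.04, against -0.03 over all tested genes. Replication markers were above 0 in 6 of 20 and below in 1 (median 0.11). Mitotic markers were above 0 in 0 of 20 and below in 6 (median -0.29). Their part in the differences of the set was not tested. EME1 differed most (log2 change 1.16, SE 0.17, adjusted p = 0.000314), with a rise in senescent cells, and was not called in proliferating cells. FANCE differed by about as much (log2 change 1.03, SE 0.18, adjusted p = 0.00108), with a rise in senescent cells and a fall in proliferating cells. That fall was close to the threshold (log2 change -0.35, SE 0.12, adjusted p = 0.0466) and was called under 9 of 17 alternatives. The interaction calls of EME1 and FANCE stood under all 16 alternatives fitted for this contrast. RMI2 (log2 change 0.74, SE 0.19, adjusted p = 0.0114) fell in proliferating cells, and in senescent cells it had 5.32 and 6.04 CPM in SEN_Dox cells, against 4.65 and 5.96 CPM in SEN_Ctrl cells, which overlap. FANCL (log2 change 0.66, SE 0.17, adjusted p = 0.0109) and RAD51D (log2 change 0.53, SE 0.14, adjusted p = 0.0168) rose in senescent cells and were not called in proliferating ones. BRCA2 was the 1 gene with a deeper fall in senescent cells (log2 change -0.64, SE 0.17, adjusted p = 0.0128).

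The calls for RMI2, FANCL, RAD51D and BRCA2 were each lost under some alternatives, with the same sign. The RMI2 call was lost without SEN_Dox replicate 2 (log2 0.64, adjusted p = 0.0683), SEN_Ctrl replicate 1 (0.56, adjusted p = 0.0608) or Nor_Ctrl replicate 2 (0.72, adjusted p = 0.0511). The FANCL call was lost without SEN_Dox replicate 1 (log2 0.48, adjusted p = 0.0748) or SEN_Ctrl replicate 1 (0.52, adjusted p = 0.0549). For RAD51D it was lost without SEN_Dox replicate 1 (log2 0.53, adjusted p = 0.0575), SEN_Ctrl replicate 1 (0.45, adjusted p = 0.0704), Nor_Ctrl replicate 1 (0.53, adjusted p = 0.0878) or Nor_Ctrl replicate 2 (0.53, adjusted p = 0.0846), and with the description's replicate number as a block (0.51, adjusted p = 0.0715). For BRCA2 it was lost without SEN_Dox replicate 1 (log2 -0.601, adjusted p = 0.0691) or Nor_Ctrl replicate 2 (-0.63, adjusted p = 0.063) and with scaling by total counts alone (log2 -0.46, adjusted p = 0.0737). With that scaling 10 genes were above 0 and none below, where 70.4% of all calls were above 0 against 40.6% with TMM factors. In the opposite direction, RMI1 came near the threshold (log2 change -0.44, SE 0.15, adjusted p = 0.0549), and without Nor_Dox replicate 1 it passed (log2 -0.61, adjusted p = 0.00355). For the other 27 genes an effect that passed in one state and not in the other is not shown to differ.

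**Figure D5:**
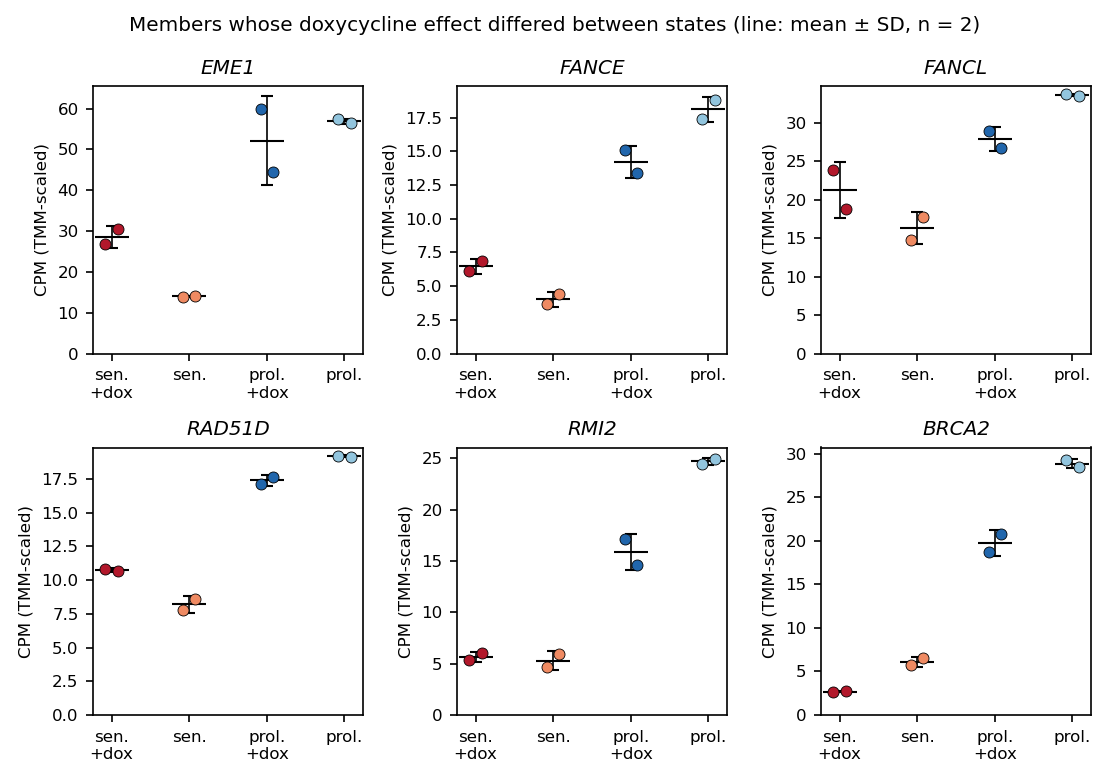
Level in CPM of the 6 genes whose doxycycline effect differed between states, one panel a gene, with both libraries of each group as points and lines for the mean and SD (n = 2). EME1 lies at 26.8 and 30.5 CPM in senescent cells with doxycycline and 13.9 and 14.1 CPM in senescent cells without it, while in BRCA2 the order of these groups is turned round.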

How the data were processed

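Messenger RNA was sequenced in 8 libraries, and every library was used. The values are raw read counts per gene as the authors deposited them. Per the submitters' processing notes, reads were handled with Trimmomatic 0.36, HISAT2 2.1.0 and featureCounts 1.6.3 on hg38. Their settings, annotation and strand choice were not given in the sources used here. Per the labels' protocols, libraries were made with a stranded mRNA kit. Libraries were grouped by the treatment in their labels.

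Counts were fitted with edgeR 4.0.16 in R 4.3.3 (filterByExpr, TMM factors, robust quasi-likelihood, 4 group means, 4 residual degrees of freedom), over 17155 of 54628 genes, with limma 3.58.1 and DESeq2 1.42.0 as alternatives. The common biological coefficient of variation was 0.0904. Each of 5 contrasts was tested two-sided at a Benjamini-Hochberg adjusted p of 0.05 over all tested genes. CPM is scaled by the product of total count and TMM factor. SE belongs to the fitted log2 change. The test was checked on simulated data. Plots used matplotlib 3.10.9.

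All 33 genes may be named, and from each other list the 2 called genes with the largest rise and fall, plus CDKN1A, MKI67, E2F1 and YAP1. The rule also names 1 gene that is not reported here. Genes and lists were chosen with earlier results of these data known. Exon lengths, overlaps and gene positions come from the GENCODE annotation of hg38. Total counts limit the precision of low genes such as XRCC2. Alternatives changed the scaling (size factors of DESeq2, or total counts alone), the tool (limma-voom or DESeq2), the filter (none, or mean log2 CPM from 1 up), the libraries (the compared groups alone, or all but 1) or added a replicate block by title number or by description number. By description number, Nor_Ctrl replicate 1 was alone in its block, so that fit in effect left it out.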

Additional observations from a re-analysis of the deposited data

Results flagged for a closer look

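For 6 of the 33 genes the interaction test found that the doxycycline effect in senescent cells differed from that in proliferating cells. On the log2 scale, the effect in senescent minus proliferating cells was 1.16 for EME1, 1.03 for FANCE, 0.74 for RMI2, 0.66 for FANCL, 0.53 for RAD51D and -0.64 for BRCA2. The effects behind these values were 1.03 in senescent and -0.13 in proliferating cells for EME1, 0.69 and -0.35 for FANCE, and 0.10 and -0.64 for RMI2. They were 0.39 and -0.27 for FANCL, 0.39 and -0.14 for RAD51D, and -1.19 and -0.55 for BRCA2, in the same order of states. EME1 and FANCE were called in all alternatives fitted for this contrast, and the other 4 lost their call when single libraries were left out.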

How the results depend on the processing

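The bleomycin falls were the most stable: 30 of 31 calls with doxycycline and 30 of 31 without it stood under all 17 alternatives. For doxycycline, 4 of 16 calls in proliferating cells, 6 of 19 in senescent cells and 2 of 6 differences between states did, the last over 16 alternatives, and no called value changed sign. Values that were not called changed sign 60 times, all between -0.21 and 0.19. In proliferating cells the median of the 33 genes was -0.29 with the description's replicate number as a block. It ran from -0.35 to -0.33 with a library left out. Most of these fits called fewer falls than the 16 of the main fit. The 15 falls in senescent cells became 7 with total counts alone, where 2498 of 17155 genes fell, against 4076 with TMM factors. The 4 rises stayed 4, where 5644 of all tested genes rose, against 3874. With a library left out the median of the 33 genes there ran from -0.41 to -0.22, and calls were gained and lost. For the difference between states, the 5 genes above 0 became 10 with total counts alone. There 2638 of all tested genes were above 0, against 1384 with TMM factors. The 1 gene below 0 became 0 with that scaling, where 1107 of all tested genes were below 0, against 2021. It became 2 with no filter, where 2295 of 32623 genes were below 0. With the title's number as a block it became 2 as well, where 2284 of 17155 genes were. With a library left out the median difference of the 33 genes ran from -0.12 to 0.12, and calls were gained and lost. The cause of these shifts was not tested. Total counts alone moved the median of all genes to -0.16 for bleomycin without doxycycline (37.1% of calls higher, against 50.3%), 0.17 for doxycycline in senescent cells and 0.15 for the difference, while the medians of the 33 genes were -2.30, -0.11 and 0.22. Libraries with the same title number correlated by -0.0121 to 0.159 in their deviations, and the labels do not say that a number pairs them, so the numbers were not taken as pairs. A fit without 1 library takes the spread of its remaining partner from the other groups. With 2 libraries a group, small changes may be missed.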

Other observations

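Of 22 cell cycle transcription factors and their inhibitors, 14 fell and 5 rose with bleomycin under doxycycline, and 14 fell and 2 rose without it. Over all tested genes 28.7% fell and 26.8% rose with doxycycline, and 29.4% fell and 29.8% rose without it. FOXM1, which drives mitotic genes, fell, at log2 -4.19 with doxycycline and -3.61 without. CDKN1A, the p53 target that blocks cyclin-dependent kinases, rose by 1.597 and 2.32, and RBL2, a pocket protein, by 0.68 and 0.79. CDKN1A fell with doxycycline in senescent cells (log2 change -0.51, SE 0.09, adjusted p = 0.000435). E2F1 had 7.18 and 8.83 CPM in SEN_Dox cells and 8.59 and 10.4 CPM in SEN_Ctrl cells, against 34.0 and 35.2 CPM in Nor_Dox cells and 44.3 and 43.7 CPM in Nor_Ctrl cells, and its doxycycline effect was called in proliferating cells (log2 change -0.35, SE 0.10, adjusted p = 0.023) and not in senescent cells (log2 change -0.24, SE 0.12, adjusted p = 0.113). For E2F1 the interaction was not called (log2 change 0.10, SE 0.16, adjusted p = 0.698).

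Among genes of the same repair pathways outside the set, 13 of 50 fell and 5 rose with doxycycline in senescent cells, where 23.8% of all tested genes fell and 22.6% rose. In proliferating cells 9 of the 50 fell and 1 rose, where 10.4% of all tested genes fell and 12.6% rose. MAD2L2, a subunit of shieldin and polymerase zeta, rose in senescent cells (log2 change 0.81, SE 0.10, adjusted p = 1.45e-05), and the interaction was called (log2 change 1.11, SE 0.14, adjusted p = 7.45e-05). ATM fell in senescent cells (log2 change -0.76, SE 0.10, adjusted p = 2.15e-05). XPC, the damage sensor of nucleotide excision repair, fell in senescent cells (-0.71, adjusted p = 6.28e-06), and NTHL1, a base excision glycosylase, rose there (0.85, adjusted p = 0.000145).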
